A study of Caenorhabditis elegans with 2 samples.

Results

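The genes rsp-1 to rsp-8 of Caenorhabditis elegans are named for SR proteins. These are splicing factors that join an RNA-binding domain to a tail rich in arginine and serine. Among the genes, rsp-7 and rsp-8 are relatives of proteins called SR-related, and they are counted here as SR protein genes. SR proteins bind exons of pre-mRNA and help the spliceosome to recognise splice sites, and kinases control them by phosphorylating the tail. The 8 genes were taken as a family by name, out of 19985 annotated protein-coding genes, and the family was chosen by inspection of earlier results of these data, among them peak signals and ranks. Their peaks are therefore described without a test. LIN-35 is the worm pocket protein, a relative of the retinoblastoma protein, and it works without binding DNA itself, through E2F-DP proteins and the DREAM complex at promoters.

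Binding was mapped by ChIP-seq in 2 biological replicates of whole, mixed-sex young adults of strain YL468. These worms carried the mutation unc-119(ed3) III and the transgene vrIs93. The transgene drives a LIN-35:GFP:FLAG fusion from the germline promoter mex-5, ends in the lin-35 3'UTR and also holds a normal copy of unc-119. All worms shared this genotype, so the data hold no second condition, and germ line and somatic chromatin were mixed in each sample. The labels give lin-35 as the antibody and also speak of an eGFP fusion, which does not settle the epitope. The files give peaks without reads, so sequencing depth is unknown. Coordinates are on ce11 (WBcel235).

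Each peak carries the authors' own signal value, whose scale is not stated, and it was used only within a list. The pooled list, made from both replicates, held 30000 peaks with a median signal of 6.20. Per the deposited text notes, this list and those of the replicates include background, so a listed peak is not by itself a called binding site. The authors' thresholded list held 550 peaks, the lowest at a signal of 24.8. Replicate 1 had 30000 peaks (median 4.88) and replicate 2 had 18226 (median 3.23). A promoter summit is a peak's highest point that falls within 1000 bp before or 300 bp after any transcript start of a gene. Ranks count from the strongest peak of a list.

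LIN-35 ChIP peaks stood at 7 of the 8 SR protein promoters in the pooled list, which includes background. In the thresholded list they stood at 4 of them, rsp-1, rsp-2, rsp-5 and rsp-6. Of all protein-coding genes, 42.9% had a pooled promoter summit and 2.77% a thresholded one. rsp-1 and rsp-2 shared the strongest peak, at rank 139. The peaks of rsp-3, rsp-7 and rsp-8 ranked from 1569 to 2372, outside the thresholded list. The exception was rsp-4, which had no promoter summit in any list but lay downstream of the pooled peak of rank 91.

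The DNA under the 6 distinct best promoter peaks is shown here by its CHR-like string nearest to the summit, since DREAM's subunit LIN-54 recognises elements of this kind, and by the E2F string found at rsp-6. A last line gives the string at the peak upstream of rsp-4. All are printed 5′ to 3′ on the plus strand of ce11, with the string in capitals.
rsp-1 and rsp-2, II:11453256-11453283: gggtgccctcaTTTGAAactgattttcg
rsp-5, II:6489930-6489957: ttttgagcacaTTCGAAaatgcaaaaga
rsp-6, CHR-like, IV:7791444-7791471: aacggcgcgaaTTCGAAcgaaaatttca
rsp-6, E2F, IV:7791332-7791361: gagagcaacgcGCGCGAAAtgatttcaata
rsp-3, III:12688136-12688163: cggccttcgttTTCGAAaaaataacgac
rsp-7, II:10658709-10658736: aaagctgtaaaTTCAAAtttttacgatg
rsp-8, III:11825506-11825533: tttcaactttcTTCAAAaaaaattccaa
rsp-4, upstream peak, II:5390152-5390179: agaggagggaaTTCGAAaaatagttttt

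The strongest peak of the family lay between rsp-1 and rsp-2, SR protein genes that stand head to head on chromosome II with 406 bp between them. Its summit (II:11453010-11453365) was 233 bp upstream of the single rsp-2 start and 174 bp upstream of the most upstream rsp-1 start. That rsp-1 start belongs to a transcript annotated as non-coding, and the nearest start of a coding rsp-1 transcript was 786 bp from the summit. The signal was 50.8 in the pooled list, 31.3 in replicate 1 at rank 193, and 16.7 in replicate 2 at rank 142. The replicates placed their summits 2 and 22 bp from the pooled one. Only 0.781% of protein-coding genes had a pooled promoter signal as high or higher. A single peak serves both genes, so it counts for 2 members without being 2 observations, and it cannot be given to either gene. A weaker pooled summit in an exon of the non-coding rsp-1 transcript, 119 bp upstream of the nearest start, had a signal of 8.68 at rank 6988. Replicate 1 had one at rank 10787. Replicate 2 listed no promoter summit of rsp-1 or rsp-2 besides the shared one.

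rsp-5, another SR protein gene, shared its peak with snr-3, which encodes a core Sm protein of the spliceosomal snRNPs. The genes face away from each other on chromosome II with 403 bp between them. The summit (II:6489790-6490145) lay 197 bp upstream of rsp-5 and 207 bp upstream of snr-3, close to the midpoint. Its signal was 28.0 in the pooled list at rank 428, 20.7 in replicate 1 at rank 415, and 8.34 in replicate 2 at rank 870. Replicate 1 had the same summit position as the pooled list, and replicate 2 placed its summit 71 bp nearer to rsp-5. The rsp-5 peak was thus among the 550 highest of replicate 1 and not of replicate 2.

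rsp-6, the worm relative of the mammalian SR protein SRp20, had the only thresholded peak of the family with no other gene's start in range. The summit (IV:7791236-7791591) lay 185 bp upstream of rsp-6 and was intergenic, in the 474 bp that separate rsp-6 from C33H5.13 on the same strand. Its signal was 26.5 in the pooled list at rank 478, 11.6 in replicate 1 at rank 1713, and 10.9 in replicate 2 at rank 416. Replicate 2 placed its summit 19 bp from that of the pooled list and replicate 1 at the same base. Here replicate 2 held the peak among its 550 highest and replicate 1 did not, the reverse of rsp-5. The rsp-5 and rsp-6 signals were near the authors' threshold, whose last peak had 24.8 at rank 550.

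**Figure D1:**
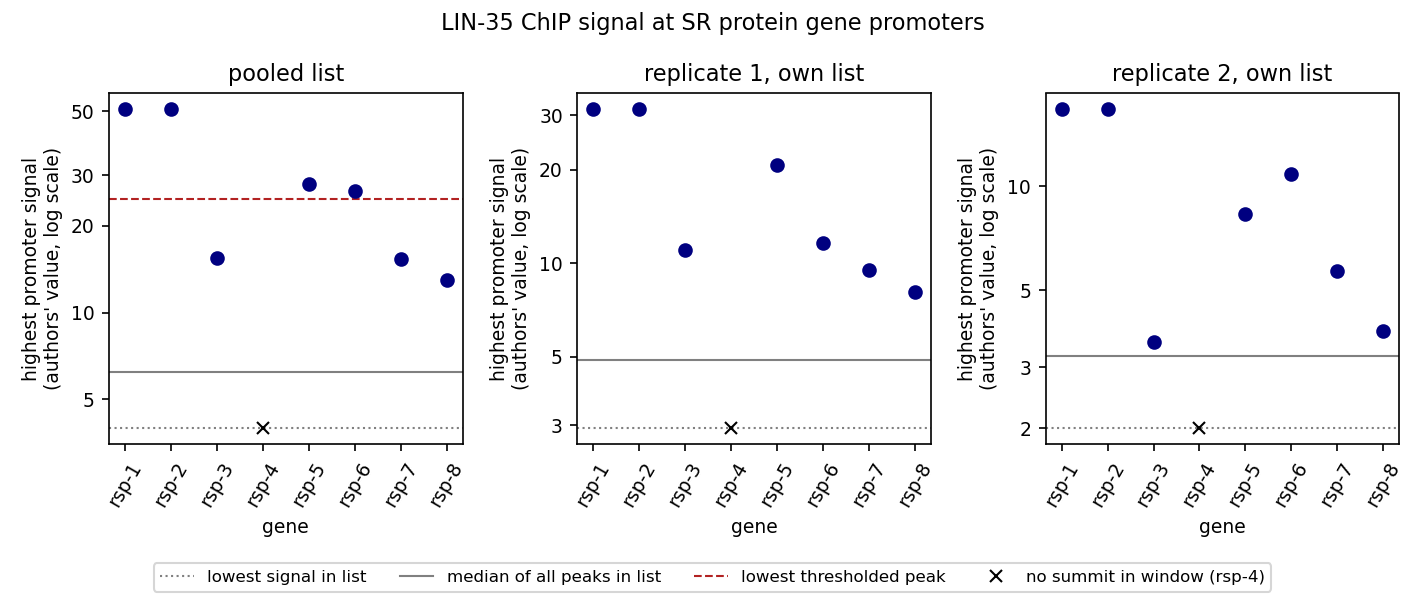
Highest promoter signal of each SR protein gene (points, log scale, authors' value) in the pooled list and in each replicate's own list, with the list's median and lowest signal as solid and dotted lines and the lowest thresholded peak dashed. In each panel rsp-1 and rsp-2 are highest through their shared peak, and the cross marks rsp-4, which had no promoter summit.

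rsp-3 encodes the worm form of SF2/ASF, the founding member of the SR proteins in mammals. Its best peak (III:12687988-12688343) lay 244 bp upstream, in the 395 bp between rsp-3 and the divergent gene spin-4, and 152 bp from the spin-4 start. The pooled signal was 15.4 at rank 1569. Replicate 1 had 11.04 at rank 1954 at the same base, and replicate 2 had 3.56 at rank 7577 with a summit 6 bp away. The position thus repeated closely, while the rank in replicate 2 was far lower than in replicate 1. Replicate 2 also listed a summit 148 bp downstream of an rsp-3 start, in a coding exon, at rank 10541.

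rsp-4 encodes a relative of the mammalian SR protein SC35. No list held a summit from its 3' end to 1000 bp upstream of its start. Its upstream neighbour ndx-6, a gene of the nudix hydrolase family, lies on the same strand and overlaps the annotated 5' end of rsp-4 by 8 bp. The nearest peak (II:5389960-5390315) was 257 bp upstream of ndx-6 and 1302 bp upstream of rsp-4, so 302 bp beyond the window. Its pooled signal was 62.9 at rank 91, with 48.9 in replicate 1 at rank 91 and 17.4 in replicate 2 at rank 125. This signal was above that of every SR protein promoter in the same lists. With a window from 2000 bp before to 500 bp after the start, rsp-4 was counted and 5 of 8 members had a thresholded summit, against 3.44% of protein-coding genes. Whether ndx-6 and rsp-4 share a transcript was not tested.

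rsp-7 encodes a relative of the mammalian SR-related protein SRp54. It stands head to head with snu-13, which encodes a protein of the U4 snRNP and of box C/D snoRNPs. The best pooled peak (II:10658560-10658915) had a signal of 15.4 at rank 1572 and lay 468 bp upstream of rsp-7, 112 bp upstream of snu-13 and 159 bp upstream of the non-coding RNA gene M28.13. At this place replicate 1 had 7.48 at rank 5873 and replicate 2 had 5.69 at rank 2504, with summits 9 and 64 bp away. The highest rsp-7 promoter summit of replicate 1 lay elsewhere, 283 bp downstream of a start in a coding exon (9.53, rank 3006), where the pooled list had only 5.23 at rank 20474 and replicate 2 had none. The replicates therefore differed on which rsp-7 summit was the stronger.

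rsp-8 is the worm relative of Tra2, an SR-related regulator of alternative splicing known from the Drosophila sex determination pathway. It is the longest of the 8 genes at 4557 bp, and its annotated starts are 3537 bp apart. The best pooled promoter peak (III:11825342-11825697) lay 898 bp upstream of the first start, with a signal of 13.0 at rank 2372. Replicate 1 had 8.10 at rank 4758 at its best summit, 443 bp upstream, and replicate 2 had 3.81 at rank 6559, 727 bp upstream. The best summits of the lists thus lay at different places, the nearest of them 443 bp from the start. Replicate 1 also had a summit 6 bp from the best pooled one, but with only 4.77 at rank 15685, below its median of 4.88. The best replicate 2 peak overlapped the best pooled peak, with summits 171 bp apart. A second pooled summit, 643 bp upstream, was almost as high as the best, with 12.5 at rank 2615. A pooled summit 791 bp upstream of the second start (12.2, rank 2797) lay in an intron and also in the window of the microRNA gene cel-mir-1832a. The highest signal in the rsp-8 gene was outside the promoter windows, in the 3'UTR (III:11830646-11831001), with 22.2 at rank 707 of the pooled list. An overlapping peak had 9.30 at rank 649 in replicate 2 and 15.2 at rank 846 in replicate 1, whose summit fell 16 bp past the annotated end of rsp-8.

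**Figure D2:**
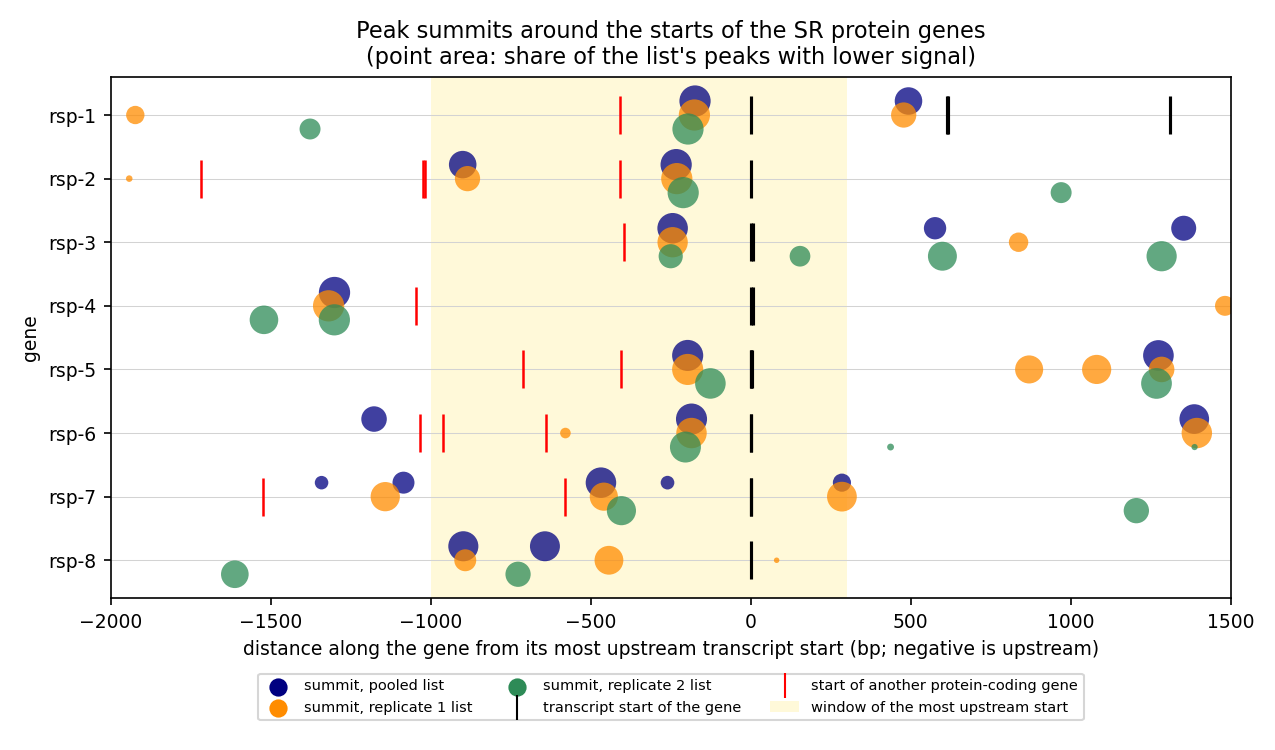
Peak summits in the pooled list and in each replicate's list, by distance in bp along each gene from its most upstream transcript start, with larger points for peaks that outrank more of their list. Each list has a summit at a similar place upstream of rsp-1, rsp-2, rsp-3, rsp-5 and rsp-6. Other summits lie near or past the 3' ends of rsp-3, rsp-5 and rsp-6. Some outrank the promoter summit of the same list, at rsp-3 and rsp-5 in replicate 2 and narrowly at rsp-6 in replicate 1. Summits are scattered, mostly upstream, at rsp-8. They are missing from the shaded window of rsp-4, whose nearest peak lies beyond the start of ndx-6. Summits deeper inside rsp-8 are outside the plotted range.

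The best pooled summits of the 7 members with one were all intergenic and from 174 to 898 bp upstream of the nearest start of the gene. Among all 555 pairs of a nuclear thresholded promoter peak and a gene, the median was 222 bp upstream, with quartiles at 123 and 379 bp. The 4 thresholded members, at 174, 233, 197 and 185 bp, and rsp-3 at 244 bp lay inside these quartiles, and rsp-7 and rsp-8 lay farther away. The peaks of rsp-3, rsp-7 and rsp-8 are not in the thresholded list, and the distances over pooled promoter peaks are not given here. Of the 6 distinct best peaks, 4 also fell in the window of another protein-coding gene, in each case one on the opposite strand. In the thresholded list 37.5% of 381 nuclear promoter peaks had genes on both strands. Of the family's peaks in that list, the rsp-1 and rsp-2 peak and the rsp-5 peak did, and the rsp-6 peak did not. The share over pooled promoter peaks is not given, so the 4 of 6 best peaks have no matching background here. The partner at 3 of these 4 peaks was itself a splicing gene (rsp-1 and rsp-2 for each other, snr-3 and snu-13), which was seen only after the peaks had been read.

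Both replicates gave a promoter summit to the same 7 members. Over all protein-coding genes 42.1% had one in replicate 1 and 29.9% in replicate 2, and 17.3% had one in the pooled list and in both replicates' lists. Among the 550 highest peaks of replicate 1 were those of rsp-1, rsp-2 and rsp-5 (3 of 8 members, against 2.71% of genes). Among those of replicate 2 were rsp-1, rsp-2 and rsp-6 (3 of 8, against 2.28%). Only the rsp-1 and rsp-2 peak was in both sets, against 1.27% of genes. Counted over all 8 members with rsp-4 placed lowest, the median best pooled signal was 20.9, a level that 3.77% of protein-coding genes reached, while the median protein-coding gene had no pooled promoter summit. Signals differ in scale between the replicates, so a mean and SD over them is not given.

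**Figure D3:**
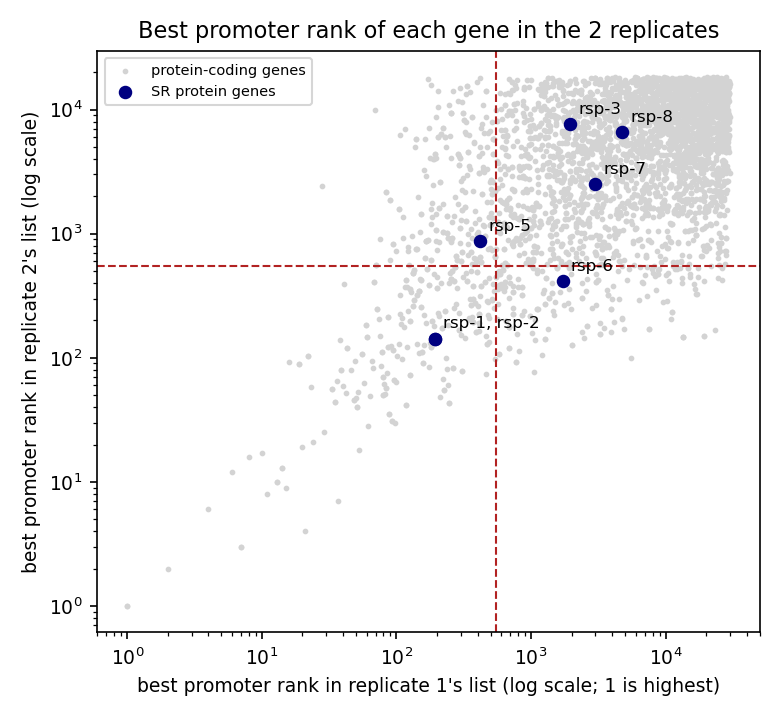
Best promoter rank of each protein-coding gene in replicate 1 against replicate 2 (log axes, rank 1 highest), for the 3721 genes with a promoter summit in both, with SR protein genes in blue and rank 550 dashed. The point of rsp-1 and rsp-2 is inside rank 550 on both axes, those of rsp-5 and rsp-6 on a single axis each, and those of rsp-3, rsp-7 and rsp-8 on neither.

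Sequence strings were sought on both strands within 100 bp of the 6 best pooled summits. The E2F strings TTTCCCGC, TTTCGCGC, TTTGCCGC and TTTGGCGC were found at 1 of the 6, the rsp-6 peak, where TTTCGCGC on the minus strand lay 64 bp from the summit toward the gene. Over 381 nuclear thresholded promoter summits of protein-coding genes 17.1% had such a string, and over 10222 pooled ones 4.97%. The CHR-like strings TTCGAA and TTTGAA were found at all 6 peaks, against 65.9% of the thresholded and 56.2% of the pooled summits. Their nearest copies lay 79 bp from the summit at rsp-1 and rsp-2, 22 bp at rsp-5, 41 bp at rsp-6, 14 bp at rsp-3 and 13 bp at rsp-7, and the copy at rsp-8 covered the summit. The rsp-3 window held 3 copies, and those of rsp-5 and rsp-7 held 2 each. The peak upstream of rsp-4 had a single CHR-like string, 25 bp from its summit, and no E2F string. No E2F string overlapped a CHR-like string. All of these are matches of letters and not shown to be bound, and the CHR-like strings are common in windows of this size.

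The 201 bases around the summits differed in composition. GC content was 47.8% at rsp-1 and rsp-2, 43.8% at rsp-6 and 40.8% at both rsp-5 and rsp-3, against a median of 39.8% over the thresholded promoter summits. At rsp-7 and rsp-8 it was 24.4% and 25.9%, below the 5th percentile of those windows, 30.8%. Against the pooled promoter summits, the list these peaks belong to, the median was 35.3% and the 5th percentile 24.9%, with rsp-7 just below it and rsp-8 above. CG dinucleotides numbered 18 at rsp-1 and rsp-2, 19 at rsp-6, 19 at rsp-3 and 8 at rsp-5, but 6 at rsp-7 and 5 at rsp-8, with a median of 11 in the thresholded windows and 7 in the pooled ones. The part of base composition in these ranks was not tested.

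The genes whose values were closest to those of the rsp-1 and rsp-2 peak were cyn-1, a cyclophilin gene, and clpp-1 and mdt-22, which share a peak. Likeness was the summed absolute log2 difference over the pooled list and the 2 replicates, among 3453 genes listed in all 3. It was 0.10 for cyn-1 (signals of 50.9, 32.7 and 17.2) and 0.15 for clpp-1 and mdt-22 (49.6, 32.4 and 17.5). The pooled list contains both replicates, so the 3 values are not independent.

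Other splicing genes were counted by the same rule in 3 lists, to be read against the 2.77% of protein-coding genes with a thresholded and 42.9% with a pooled promoter summit. Of 8 genes for the SR protein kinase and SR-related proteins, 3 had a thresholded promoter summit and 8 a pooled one. The thresholded ones were rsr-1, the worm SRm160 (pooled signal 70.8, shared with sri-5), acin-1, the worm acinus (46.8, shared with the replication licensing gene cdc-6), and rbm-39 (32.3). The kinase gene spk-1 had 8.67 at rank 7007. Of 33 snRNP and core spliceosome genes, 5 had a thresholded summit and 25 a pooled one. The highest were the Sm protein genes snr-4 (41.0) and snr-6 (38.8), prp-40 (29.5) and the helicase gene mog-4 (28.8), and the fifth was snr-3 through the peak it shares with rsp-5. The peaks of snr-4, snr-6 and prp-40 also lay in the windows of genes outside these lists, and that of mog-4 did not. Of 15 splicing regulators outside the SR family, 2 had a thresholded summit, smu-1 (101.8 at rank 40) and the hnRNP gene hrpa-1 (31.4), and 12 a pooled one. In the order given, 2, 1 and 2 genes of these lists were among the 550 highest peaks of both replicates, against 1.27% of genes. In replicate 2 rbm-39 ranked only 6220, mog-4 4048, prp-40 1194 and snr-6 1037. The difference between these lists and the SR protein genes was not tested.

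**Figure D4:**
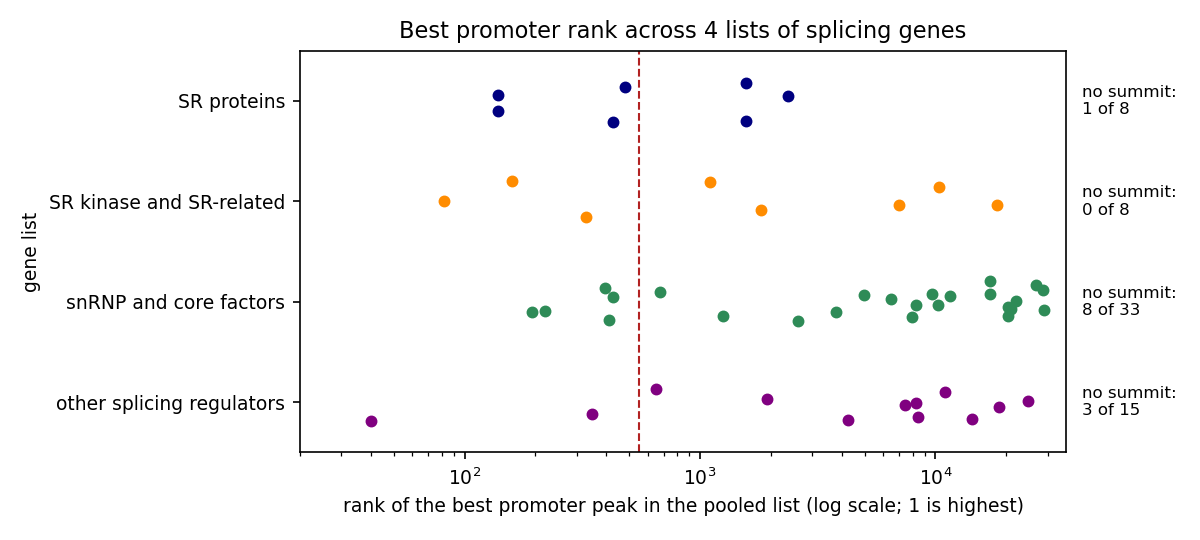
Rank of the best pooled promoter peak (log axis, 1 is highest) for SR protein genes and 3 lists of other splicing genes, with points spread vertically for clarity, rank 550 dashed and genes without a summit counted at the right. The 7 SR protein genes with a summit reach from rank 139 to 2372. Genes with a summit in the other lists reach from rank 82 to 18300, 194 to 28804 and 40 to 24666, in the order drawn.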

How the data were processed

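The deposited files used were 4 peak lists on ce11 from LIN-35 ChIP-seq, 1 for each of the 2 replicates, 1 pooled and 1 thresholded by irreproducible discovery rate (IDR). Per the deposited text notes, peaks of the replicates and of the pooled data came from alignments and a control library and include background, and the thresholded list came from the other 3. The sources used here name no caller, aligner or IDR cutoff. The signal values are the authors' own, as deposited. The ce10 lists (4 files) were not analysed here.

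Summits were assigned to genes with the Ensembl release 115 annotation of WBcel235, and sequences were read from the RefSeq copy of that assembly, whose chromosome lengths hold all peak ends. All biotypes were kept as neighbours. In simulation, 500 of 500 summits placed in windows were assigned to their gene. Of 238 placed 1 bp beyond the upstream edge, at genes with a single start, 0 were. None was placed beyond the downstream edge. The placing followed the same window rule, so this checks only the running of the code. The tools were Python 3.11.15, numpy 2.4.6, pandas 2.3.3 and matplotlib 3.10.9.

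The members, lists, strings and settings were chosen with earlier results of these data known, and no test was run. Genes were named if they were members, shared a member's best pooled peak, were among the 4 highest thresholded genes of another splicing list, or were the 3 nearest in signal to the strongest member. spk-1, ndx-6, C33H5.13, sri-5, cdc-6, marc-2 and the microRNA gene were named after their values were seen. Alternatives were other windows, nearest or most upstream starts, peak overlap, other list lengths, each replicate alone and other string windows. Starts of coding transcripts only were added after seeing the data.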

Additional observations from a re-analysis of the deposited data

How the results depend on the processing

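The number of SR protein genes with a thresholded promoter summit, 4, was 2 with only the thresholded peaks above that list's median signal and 7 with the 3000 highest pooled peaks, where fewer or more peaks enter by construction. The share of all protein-coding genes moved with it, from 2.77% to 1.5% and 9.56%. The windows, start rules, peak overlap, the 1000 highest pooled peaks and each replicate's own 550 highest peaks gave 3 to 5. Without replicate 1 or without replicate 2 the count was 3 each time, losing rsp-5 or rsp-6. With coding transcript starts and a window from 500 bp before to 100 bp after the start, added after seeing the data, it was 3, since rsp-1 no longer counted. The count of 7 with a pooled summit was 6 in the narrow window (28.7% of genes) and 8 in the wide one (57.2%). By nearest start, 3 of 7 members kept their best pooled rank. The shared peaks went to the nearer partner (rsp-1, rsp-5, spin-4 and snu-13), where rsp-1 was nearer than rsp-2 only through its non-coding start. The gene rsp-8 held its peak of rank 2372 but gained the higher 3'UTR peak of rank 707. Within 50 bp, 0 of 6 peaks had an E2F string (9.71% of thresholded and 2.75% of pooled promoter summits) and 5 a CHR-like string (41.7% and 34.4%). No paired analysis was possible because the samples form a single group. Peak lists carry no depth, so the missing rsp-4 summit says only that no peak was listed.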

Other observations

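The pooled list held 11 summits inside the SR protein genes, 8 of them above that list's median signal of 6.20. Besides the 3'UTR peak of rsp-8, described above, the rsp-8 intron summit at pooled rank 2797 had a counterpart at rank 7499 in replicate 1 and 8113 in replicate 2. In the rsp-3 3'UTR the pooled list had 7.13 at rank 11179, 1353 bp from the gene's start. Replicate 1 had a 3'UTR summit of 7.45 at rank 5945, but at another place, 1652 bp from the start. Replicate 2 had one of 7.17 at rank 1308, 1284 bp from the start, above its own rsp-3 promoter summit at rank 7577. In a coding exon of rsp-3, also in the window of spin-4, the pooled list had 6.18 at rank 15134. There replicate 2 had 5.50 at rank 2728, again above its promoter summit. In a coding exon of rsp-7, 2547 bp from its start, the pooled list had 12.3 at rank 2743 and replicate 1 had 10.6 at rank 2178. That summit also lay in the promoter window of marc-2. Replicate 2 listed no summit inside this pooled peak. Its nearest summit in rsp-7 was 2880 bp from the start, with 3.61 at rank 7364, and the peak around that summit overlapped the edge of the pooled peak. Inside rsp-5 replicate 1 listed 2 summits, the higher with 8.55 at rank 4088, and the pooled list and replicate 2 listed 0. Past the end of this 1176 bp gene, the pooled list had a summit 1274 bp from the start, above 95.6% of its peaks. Replicate 2 had one at 1268 bp, above 96.2% of its peaks, against 95.2% for its rsp-5 promoter summit. Replicate 1 had one at 1284 bp, above 65.7%. Summits just past the rsp-6 end were above 89.4% of the pooled, 94.31% of the replicate 1 and 1.28% of the replicate 2 peaks. Inside rsp-4 all lists had 0.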
